A study of Mus musculus with 2 samples.

Results

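The stromal fibroblasts of the mouse stomach at embryonic day 15 (E15) were taken as the cells that carried both the deposited class label Stromal and the tag of the E15 stomach, which gave 360 of 7808 cells. The data held 3442 Stromal cells and 742 E15 stomach cells in all. Cells of the esophagus, the gastroesophageal squamocolumnar junction (GE-SCJ) and the stomach were isolated with collagenase from wild-type C57BL/6 mice, for which the labels name no treatment, at E15, E19, 2 days after birth (pup) and 8 weeks (adult), marked with an oligonucleotide tag for each region and stage, and sequenced together in a single 10x Genomics 3′ library. Per the methods, no adult stomach cell was assigned a tag, and the data held 11 groups of region and stage. The stomach fibroblasts were compared with 347 Stromal cells of the E15 esophagus and with 111 Smooth Muscle cells of the E15 stomach. Mice were pooled within each tag, in numbers that the labels and the methods give differently, and no cell can be traced to its mouse. Each group is therefore a single sample, and no difference was tested.

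The 360 cells held 3818040 unique molecular identifiers (UMIs, counted RNA molecules), with a median of 9858 per cell and a range of 1933 to 46129. The esophageal Stromal cells held 3809690 UMIs with a median of 10573, and the stomach Smooth Muscle cells 1653158 UMIs with a median of 13329. Levels are given as CPM, a gene's summed UMIs in a group per 1000000 UMIs of that group, with the exact 95% Poisson interval in parentheses. Log2 ratios compare the CPM of 2 groups after 1 UMI was added to each sum, with an exact 95% interval in parentheses. These intervals cover counting error only and not the spread between animals. Shares of cells were counted after each cell was thinned to 5000 UMIs, which left 325 stomach fibroblasts and left out 35 shallower ones.

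Fibroblasts of the gut wall arise from splanchnic mesoderm, build the collagen-rich matrix under the epithelium, and send BMP, WNT, FGF and other signals to epithelium, nerves and muscle. In the stomach, the homeobox factor Barx1 is known as a mesenchymal factor needed for stomach identity of the overlying endoderm. Hedgehog ligands from the epithelium act on the receptor Ptch1 in this mesenchyme, and part of the same mesenchyme forms the smooth muscle layers.

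The cells carried the markers of stomach fibroblasts. Col3a1 and Col1a1, which encode fibrillar collagens, stood at 3957 CPM (3894 to 4021) and 3439 CPM (3380.4 to 3498), against 304 and 274 CPM in E15 immune cells of all regions. Barx1 (chr13:48662998-48666507, plus strand, GRCm38) stood at 576 CPM (552 to 601), and 91.7% (88.1 to 94.5) of thinned cells held a UMI of it, against 1.49% (0.038 to 8.04) of immune cells, whose median depth was 11504 UMIs. Pdgfra, a receptor of platelet-derived growth factor that marks fibroblasts, stood at 208 CPM (194 to 223) and was seen in 54.5% (48.9 to 59.97) of cells, against 1.49% (0.038 to 8.04) of immune cells. All 4 markers were therefore above their level in immune cells.

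Defining markers of immune, endothelial and skeletal muscle cells were at or near 0. The pan-immune gene Ptprc stood at 0.524 CPM (0.063 to 1.89) and the endothelial gene Pecam1 at 2.36 CPM (1.08 to 4.47). Summed over each list, 10 immune markers reached 19.6 CPM (Lyz2 the most abundant, Cd52 at 0), 9 endothelial markers 22.5 CPM (Egfl7 the most abundant), 8 skeletal muscle markers 4.19 CPM (Mb, Myod1, Myog and Pax7 at 0) and 7 mesothelial markers 46.6 CPM (Krt19 the most abundant). The 10 neural markers summed to 77.3 CPM, of which the microtubule regulator Stmn2 gave 55.3 CPM, with Phox2a and Tubb3 among those at 0. Epithelial RNA was present, with 13 epithelial markers at 213.7 CPM (the keratin Krt8 the most abundant at 69.7 CPM, none at 0), against 204 CPM in esophageal Stromal, 227 CPM in stomach Smooth Muscle, 213 CPM in stomach Immune and 5011 CPM in stomach Columnar Epithelial cells. Epcam, an adhesion gene of epithelium, was seen in 7.08% (4.54 to 10.4) of thinned stomach fibroblasts and in 13.4% (6.33 to 23.97) of immune cells, so its share was not above the level in cells that should lack it. Gastric secretory markers, led by the pepsinogen gene Pgc, summed to 1792 CPM in stomach Stromal, 1724 CPM in esophageal Stromal, 1438 CPM in stomach Smooth Muscle and 2369 CPM in GE-SCJ Stromal cells, against 3157 CPM in E15 immune cells of all regions and 6052 CPM in stomach Columnar Epithelial cells. Hemoglobin genes summed to 657 CPM, and a single cell held 31.6% of those UMIs.

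Stretches of DNA that bear on genes described below were read from the RefSeq windows on GRCm38.p6. The first is the 250 bases before the start of Hand2 (chr8:57320733-57320982, plus strand), shown because Hand2 and its opposite-strand neighbour Hand2os1 were both among the genes with the largest stomach excess, and the capitals mark the 123 bases between the RefSeq starts of the 2 genes. The other is a stretch before the contractile gene Myl9 (chr2:156775273-156775342, plus strand), shown because contractile genes separated fibroblasts from muscle, and the capitals mark a CArG box, the letters that serum response factor is known to bind, 152 bases before the start.
Hand2: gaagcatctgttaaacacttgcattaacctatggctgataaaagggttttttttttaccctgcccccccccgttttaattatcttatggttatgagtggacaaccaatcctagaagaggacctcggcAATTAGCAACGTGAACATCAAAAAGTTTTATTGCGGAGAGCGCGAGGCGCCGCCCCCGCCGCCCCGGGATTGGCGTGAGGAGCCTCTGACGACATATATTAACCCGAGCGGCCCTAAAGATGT
Myl9: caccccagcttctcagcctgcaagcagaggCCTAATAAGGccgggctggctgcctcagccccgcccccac
A CArG box on either strand was found in 535 of 32851 promoter windows of 300 bases (1.63%), and in 1 of the 13 contractile-list genes that had a window. A match describes the letters only.

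Compared with esophageal fibroblasts of the same stage, stomach fibroblasts held more RNA of a group of transcription factors, Barx1, Isl1, Hand2, Six2 and Zfhx4, and of the chemokine Ccl11. They held less of Col1a1, Col1a2 and Col3a1 and of several matrix glycoproteins. Esophageal cells instead held Foxd1, Nkx6-1, Tbx5, Tbx18 and Thbs4, which stood at 0 to 4.19 CPM in the stomach. Of 10392 genes with at least 50 UMIs over both groups, 340 (3.27%) were at least 2-fold higher in the stomach and 301 (2.9%) at least 2-fold lower. The median log2 ratio of all genes was 0.12, and after centring on it 279 genes were higher and 351 lower. The deposited clusters differed between regions: the stomach cells lay in clusters 0 (215 cells, 59.7%) and 3 (145 cells, 40.3%), and the esophageal cells in clusters 1 (204 cells, 58.8%), 3 (136 cells, 39.2%) and 0 (7 cells). Within cluster 3 of both regions, Ccl11 was lower in the stomach, at a log2 ratio of -1.81.

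**Figure D1:**
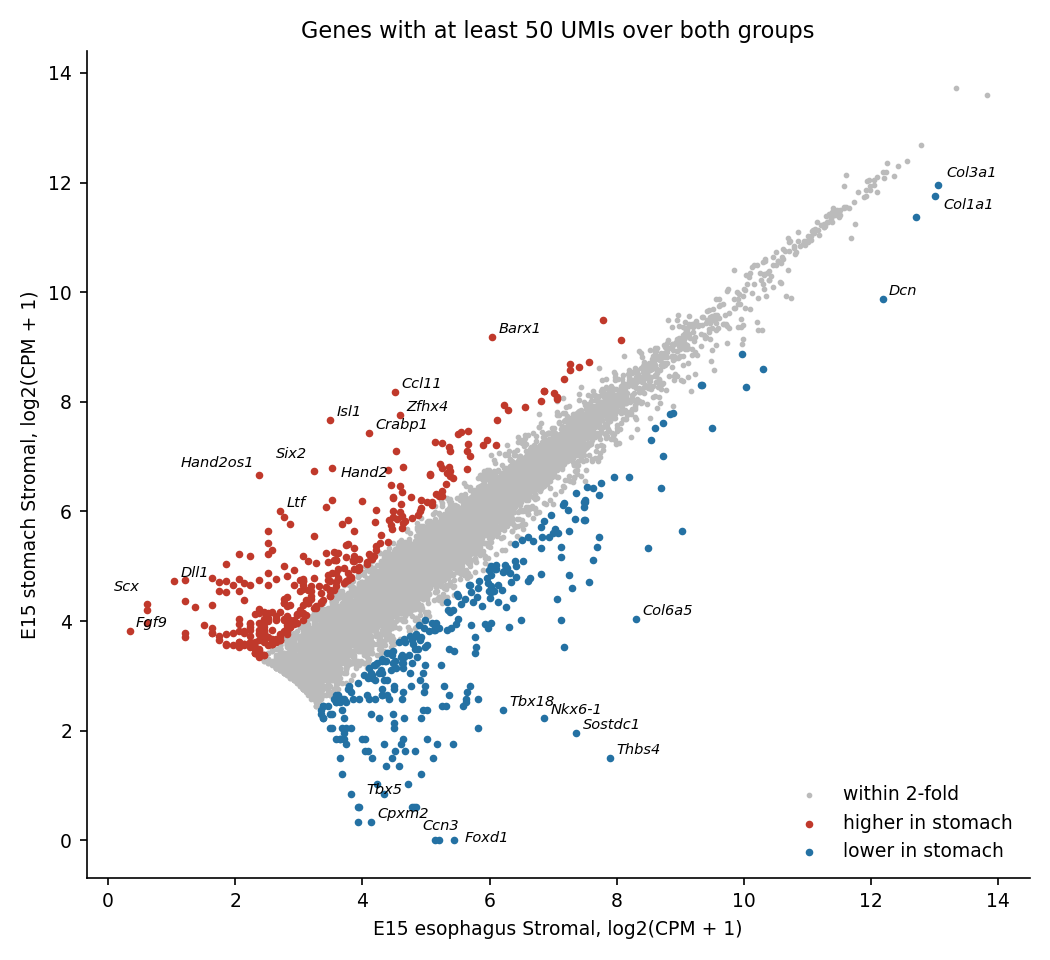
Level of each gene in E15 stomach Stromal cells (vertical axis) against E15 esophageal Stromal cells (horizontal axis), both as log2(CPM + 1), with 1 point per gene with at least 50 UMIs over both groups. Red points are the 340 genes at least 2-fold higher in the stomach and blue points the 301 genes at least 2-fold lower, and Barx1 stands on the opposite side of the diagonal from Col1a1 and Col3a1.

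Among transcription factors, the LIM homeobox gene Isl1 (chr13:116298281-116309689, minus strand) stood at 203 CPM (189 to 218) in the stomach and 10.2 CPM (7.28 to 13.99) in the esophagus, a log2 ratio of 4.27 (3.84 to 4.81). Barx1 stood at 576 against 64.8 CPM (57.00 to 73.4), a log2 ratio of 3.15 (2.96 to 3.35). The intervals of the 2 regions did not overlap for either gene. Hand2, a basic helix-loop-helix factor of the splanchnic mesoderm, stood at 109 CPM (99.2 to 120.5) against 10.5 CPM (7.501 to 14.3), and the neighbouring transcript Hand2os1 at 101 CPM (90.8 to 111) against 4.200 CPM (2.401 to 6.82). In GENCODE M21 on GRCm38, Hand2os1 (chr8:57281117-57324233, minus strand) overlaps Hand2 (chr8:57320983-57324633, plus strand) on the other strand. The methods name Cell Ranger with default settings, taken here to count a read only toward genes on its own strand. The setting itself is not written out, so the split of reads between this pair is uncertain. Six2 had a log2 ratio of 3.61 (3.13 to 4.22) and the zinc finger homeobox gene Zfhx4 of 3.21 (2.91 to 3.56).

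Of 49 mesenchymal transcription factors measured, 11 were higher and 12 lower, with a median log2 ratio of 0.03 beside 0.12 for all genes. Of all genes, 3.27% were higher and 2.9% lower. Pitx1 (1.82), Sox11 (1.36) and Ebf3 (1.35) were also higher. Foxd1 (chr13:98354242-98359305, plus strand) had 0 UMIs (3 UMIs would be 0.786 CPM) in the stomach and 42.3 CPM (35.98 to 49.3) in the esophagus. That is at least 53.8-fold lower by the 3-UMI floor, with a weaker log2 interval bound of -5.43. The homeobox gene Nkx6-1 stood at 3.67 CPM (2.005 to 6.15) against 115 CPM (104 to 126). The T-box genes Tbx5 and Tbx18 had log2 ratios of -5.09 (-8.73 to -3.77) and -4.04 (-4.95 to -3.402). The factors thus split by region in both directions, while Foxf1, a hedgehog-responsive forkhead factor, stood at 255 and 229.7 CPM. Of 9 Hox genes measured, Hoxa5 (1.86, 1.48 to 2.29) and Hoxa4 (1.22, 0.72 to 1.79) were higher, beside 3.27% of all genes.

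**Figure D2:**
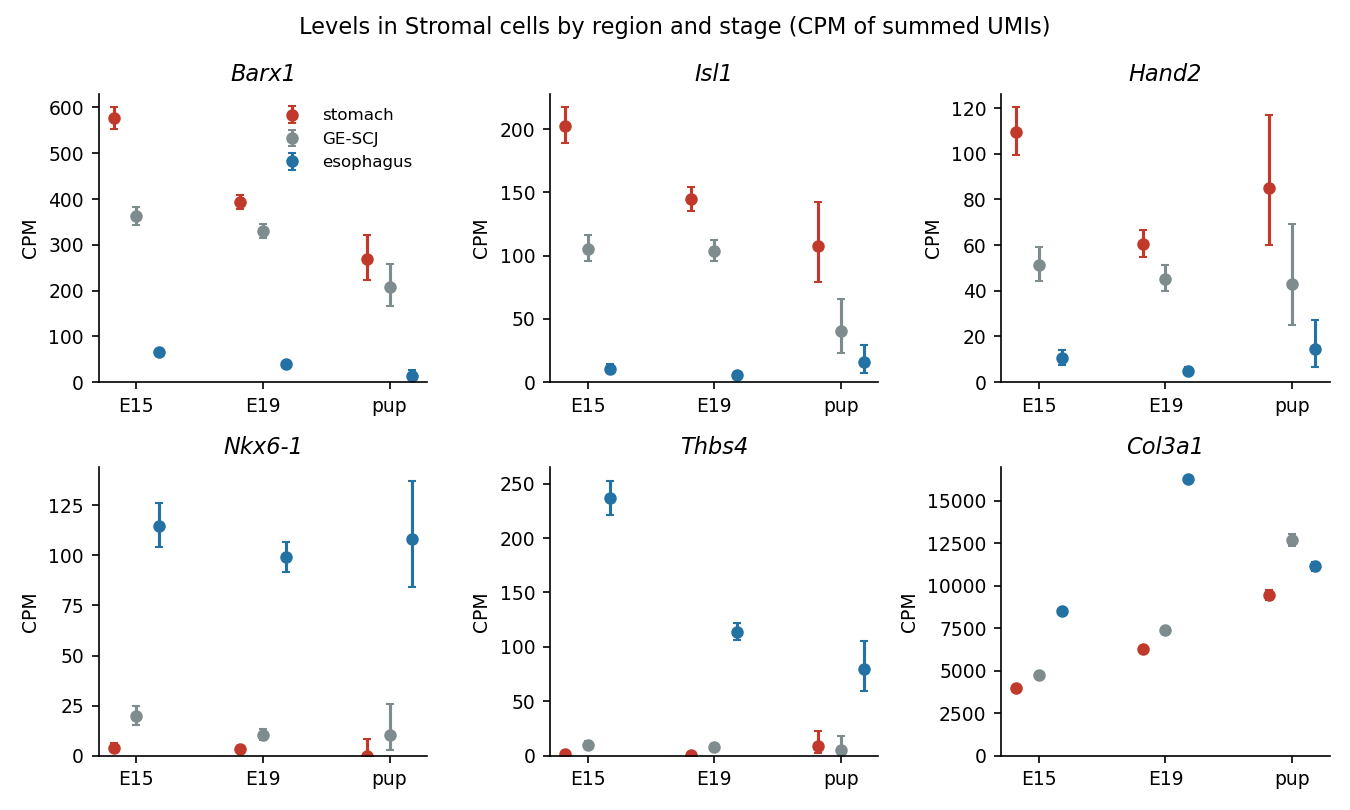
Levels of 6 genes in Stromal cells of the stomach (red), GE-SCJ (grey) and esophagus (blue) at E15, E19 and pup stages, in CPM of summed UMIs, with bars for the exact 95% counting interval. Barx1, Isl1 and Hand2 were highest in the stomach at each stage and Nkx6-1 and Thbs4 in the esophagus, although the pup intervals of stomach and GE-SCJ overlapped for Barx1 and Hand2.

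The 3 main fibrillar collagen genes and several matrix glycoproteins were lower in the stomach. The 13 collagens of the list summed to 13456 CPM against 28523 CPM in the esophagus, with a median log2 ratio of -0.67. Col1a2, Col1a1 and Col3a1 were lower by more than 2-fold, with log2 ratios of -1.33 (-1.37 to -1.299), -1.25 (-1.28 to -1.22) and -1.11 (-1.14 to -1.08), and the basement membrane collagen Col15a1 was higher at 2.03 (1.48 to 2.69). The other 9 were within 2-fold. Of 25 matrix glycoproteins and elastic fibre genes, 7 were lower and 1 higher. Of all genes, 2.9% were lower and 3.27% higher. The microfibril gene Mfap5 stood at 48.98 CPM (42.2 to 56.5) against 522 CPM (499 to 546), and Postn, Fbln2 and the proteoglycan Dcn had log2 ratios of -2.88, -2.74 and -2.31. For stomach cluster 0 over esophageal cluster 1 Postn was within 2-fold, at -0.56, against -3.23 within cluster 3. Hapln1, which links hyaluronan to proteoglycans, was the gene of this list that was higher, at 2.47 (1.52 to 3.901). Outside these lists, the matrix gene Thbs4 stood at 1.83 CPM (0.737 to 3.78) against 237 CPM (222 to 253), the largest deficit by the rule for named genes, and the BMP and WNT antagonist Sostdc1 at 2.88 CPM (1.44 to 5.16) against 164 CPM (151 to 177).

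Several BMP ligands and targets were higher in the stomach, where 3.27% of all genes were higher and 2.9% lower. Of 7 BMP ligands, Bmp5 (2.997, 2.09 to 4.41), Bmp3 (1.61, 1.02 to 2.32) and Bmp7 (1.34, 0.75 to 2.01) were higher, while the most abundant ligand, Bmp4, stood at 280.2 CPM (264 to 298) against 168 CPM (155 to 182). Within cluster 3 of both regions Bmp4 was not higher, at a log2 ratio of -0.61. Of 12 BMP receptors and targets, 5 were higher, with a median of 0.68 beside 0.12 for all genes. Id1, a direct BMP target that blocks helix-loop-helix factors, stood at 169 CPM (156 to 182) against 44.4 CPM (37.9 to 51.6), and Id2, Id3, Smad6 and Smad7 had log2 ratios of 1.57, 1.42, 1.26 and 1.15. The BMP antagonist Grem1 was also higher, at 2.46 (1.69 to 3.52).

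Other genes that the fixed rule named as higher stood at lower levels. The Notch ligand Dll1 stood at 25.4 CPM (20.6 to 30.99) against 1.05 CPM (0.286 to 2.69), and the tendon factor Scx at 18.9 CPM (14.8 to 23.7) against 0.525 CPM (0.064 to 1.896) on 2 esophageal UMIs. Of their stomach UMIs, 96 of 97 for Dll1 lay in cluster 0 and 71 of 72 for Scx in cluster 3. Ccbe1, a secreted factor of lymphatic growth, had a log2 ratio of 4.48 (3.13 to 8.12), the teneurin Tenm1 of 4.24 (2.88 to 7.88) and Ccdc3 of 3.28 (2.704 to 4.04). Among the lower genes, the collagen VI chains Col6a5 and Col6a6 stood at 15.5 CPM (11.8 to 19.9) and 10.5 CPM (7.48 to 14.3) in the stomach against 315 CPM (297 to 333) and 144 CPM (132 to 156) in the esophagus. The matricellular gene Ccn3 had 0 UMIs in the stomach against 35.7 CPM (29.95 to 42.2), at least 45.4-fold lower by the 3-UMI floor (log2 interval bound -5.19). The glutamate receptor Grm7, the renin gene Ren1, the carboxypeptidase-like Cpxm2, Clec3b and the ryanodine receptor Ryr3 had log2 ratios of -5.16 (-8.795 to -3.84), -5.12 (-8.75 to -3.800), -5.003 (-11.31 to -3.45), -4.03 (-5.11 to -3.304) and -4.24 (-6.14 to -3.22), on 1 to 12 stomach UMIs each.

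Other signals differed gene by gene. Among secreted WNT inhibitors, Sfrp1 stood at 718 CPM (691 to 745) against 219.7 CPM (205 to 235) and Dkk2 had a log2 ratio of 1.45 (1.08 to 1.85), and the ligand Wnt2 was lower at -4.21 (-6.92 to -3.004). Within the stomach, Dkk2 stood at 3.01 CPM (1.21 to 6.19) in cluster 0 and 140 CPM (121 to 160) in cluster 3. Its log2 ratio of stomach over esophagus within cluster 3 was 1.51. The R-spondin Rspo3, which amplifies WNT signals, stood at 36.7 CPM (30.8 to 43.3) against 27.6 CPM (22.5 to 33.4), with log2 ratios of 3.86 for stomach cluster 0 over esophageal cluster 1 and -0.95 within cluster 3, and Wnt5a at 124 CPM (113 to 136) against 86.9 CPM (77.8 to 96.8). The 13 WNT receptors and targets measured had a median of -0.10 beside 0.12 for all genes, and 0 passed 2-fold, a count near the all-gene shares of 3.27% and 2.9%. Fgf10, a mesenchymal growth factor for epithelium, had a log2 ratio of 2.74 (2.27 to 3.31), and Fgf9 of 4.67 (3.096 to 10.97) on 50 stomach UMIs and 1 esophageal UMI. In the retinoic acid list, the binding protein Crabp1 was higher at 3.38 (3.02 to 3.798), and the synthesizing enzyme Aldh1a2 lower at -1.98 (-2.27 to -1.71). Aldh1a2 had -2.48 for stomach cluster 0 over esophageal cluster 1 and was within 2-fold in cluster 3, at -0.16. Hhip, a hedgehog antagonist and target, was lower at -1.24 (-1.52 to -0.98), whereas the other 9 hedgehog genes, Ptch1 included, were within 2-fold. The growth factor binding gene Igfbp2 was higher at 2.21 (1.898 to 2.57), with 0.50 for stomach cluster 0 over esophageal cluster 1 and 2.88 within cluster 3, while Igf1, Mdk and Ptn stood at 947, 1299.9 and 1167 CPM against 1703, 1099 and 1518. In the TGF-beta list, Tgfb2 was higher at 1.12 (0.797 to 1.47) and the activin subunit Inhba lower at -2.08 (-2.85 to -1.46). Tgfb2 had 2.60 for stomach cluster 0 over esophageal cluster 1 and was within 2-fold in cluster 3, at 0.24.

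Of 25 nerve guidance and neurotrophic genes, 6 were higher, led by the neurotrophin Ntf3 (2.26, 1.34 to 3.596), and 6 lower, led by the netrin Ntn1 (-1.79, -2.06 to -1.53). Of 18 chemokine and adhesion genes, 6 were higher and 3 lower. The eosinophil chemokine Ccl11 (chr11:82057823-82062955, plus strand) stood at 288 CPM (271 to 306) against 21.8 CPM (17.4 to 27.01), and Cd34 was lower at -2.52 (-2.81 to -2.26). Ccl11 had 5.36 for stomach cluster 0 over esophageal cluster 1, but was lower within cluster 3 of both regions, at -1.81. Genes that also mark pericytes and interstitial cells of Cajal were higher: Abcc9, Rgs5, Mcam and Kcnj8 of 7 pericyte genes, and Etv1, Kit and Gpr20 of 4 Cajal genes. The pericyte list summed to 843 CPM against 319.97 CPM and the Cajal list to 339.97 CPM against 97.9 CPM, and the part of such cells in the other differences was not tested. Within cluster 3 of both regions, Rgs5 (-0.91) and Mcam (-0.13) were not higher in the stomach, whereas Abcc9 had 0.83. The 22 DNA replication and mitosis genes had a median of 0.41 beside 0.12 for all genes, and 0 passed 2-fold, beside 3.27% and 2.9% of all genes.

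**Figure D3:**
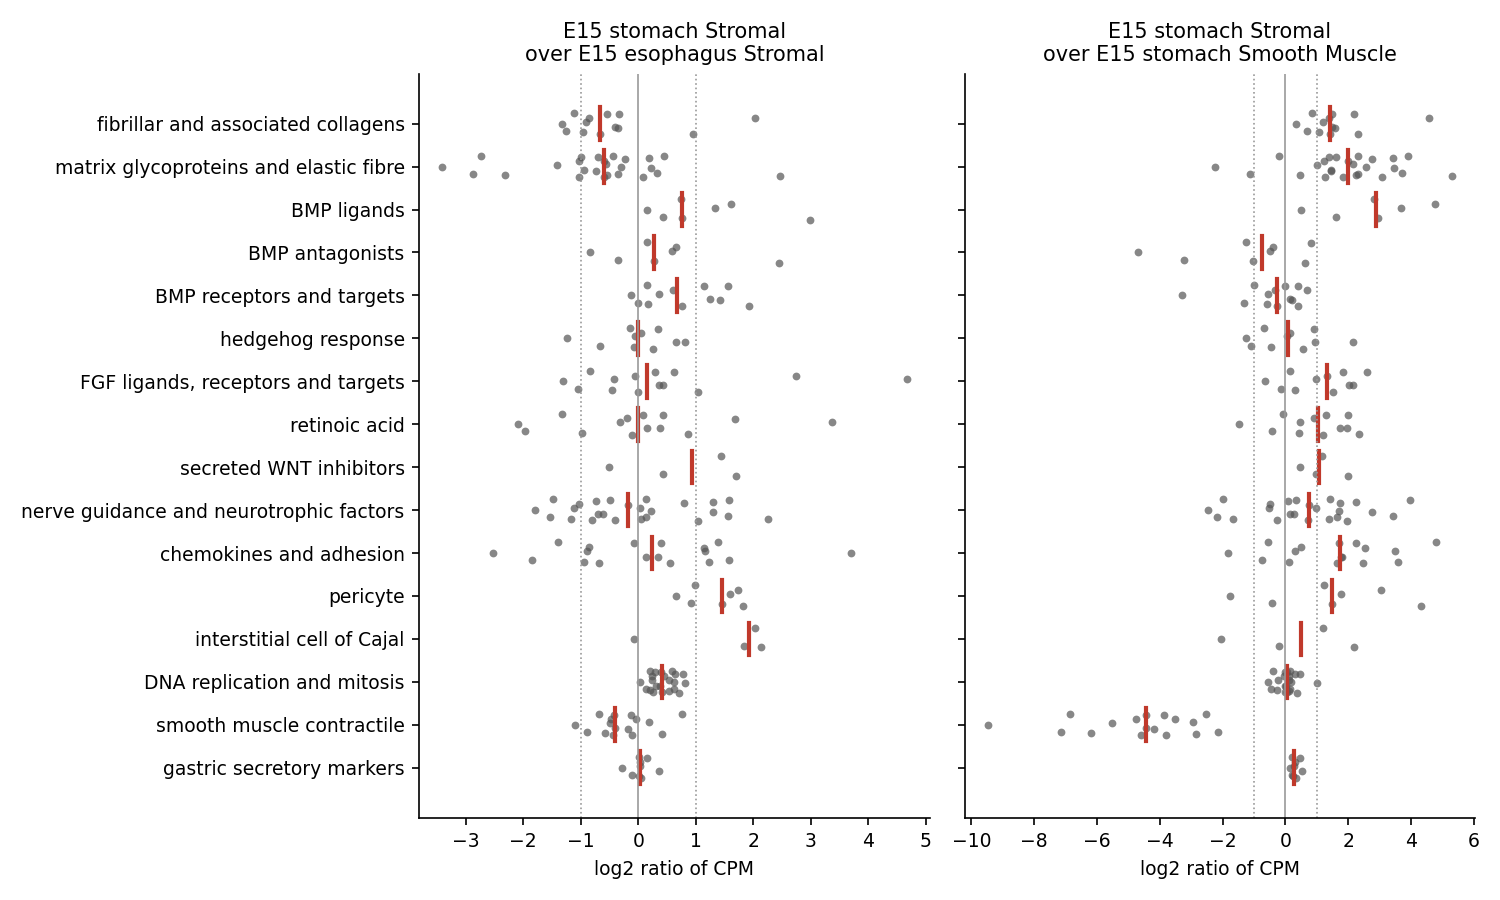
Log2 ratio of CPM for each measured gene of 16 lists (points), in stomach Stromal over esophageal Stromal cells (left) and over stomach Smooth Muscle cells (right) at E15, with the list median as a red bar and dotted lines at 2-fold. The collagen median was -0.67 on the left and 1.42 on the right, and every contractile gene lay below the dotted line on the right.

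The stomach fibroblasts fell into the 2 deposited clusters, which were made from the same counts, so their differences are a description. Of 8564 genes, 315 (3.68%) were at least 2-fold higher in cluster 0 and 286 (3.34%) at least 2-fold higher in cluster 3. In cluster 0, 5 of 6 BMP ligands were higher and 1 lower, and of 10 hedgehog response genes 4 were higher and 3 lower. Bmp4 stood at 433 CPM (407 to 461) against 40.97 CPM (31.3 to 52.6), and Ptch1 at 637 CPM (605 to 670.4) against 171 CPM (150.3 to 193). The forkhead genes Foxl1 and Foxf2, known from mesenchyme next to the gut epithelium, had log2 ratios of 4.94 (3.41 to 11.24) and 4.35 (3.55 to 5.64). Ccl11 stood at 466 CPM (438 to 494) against 10.1 CPM (5.64 to 16.6).

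Cluster 3 held more RNA of Kit, Crabp1, Ptn and Gdnf, and of the IGF, midkine and pleiotrophin list 7 of 14 genes were higher there and 1 lower. The receptor Kit, a marker of interstitial cells of Cajal, stood at 375 CPM (344 to 407) against 9.02 CPM (5.58 to 13.8) in cluster 0. Crabp1 stood at 413 CPM (381 to 447) against 17.2 CPM (12.3 to 23.4), and the growth factor Ptn at 2306 CPM (2229 to 2384) against 439 CPM (412 to 467). Gdnf, the ligand that guides enteric nerve precursors, had a log2 ratio of cluster 0 over cluster 3 of -3.38 (-4.31 to -2.69), and the hedgehog co-receptor Cdon of -5.21 (-6.73 to -4.32). Stmn2 had 0 UMIs in cluster 0 and 142 CPM (123 to 162) in cluster 3, where 21 of 145 cells held it and 1 cell held 33.6% of its UMIs (95.6 CPM without that cell). Barx1, Isl1 and Pdgfra were present in both, at 499.7 and 696, 199 and 209, and 204 and 216 CPM in clusters 0 and 3. In thinned cells, Bmp4 was seen in 166 and Kit in 72 of 325 cells, and both in 11 (3.38%, beside 11.3% if the genes were unrelated). Crabp1 was seen in 59 of those cells, and Kit and Crabp1 together in 10 (3.08%, beside 4.02% if unrelated). Before thinning, 93 of the 145 cluster 3 cells held Kit and 52 held Crabp1. The higher levels of Kit and Crabp1 in cluster 3 therefore do not describe each of its cells. Of 15 contractile and 22 mitosis genes 0 passed 2-fold between the clusters, beside 3.68% and 3.34% of all genes.

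**Figure D4:**
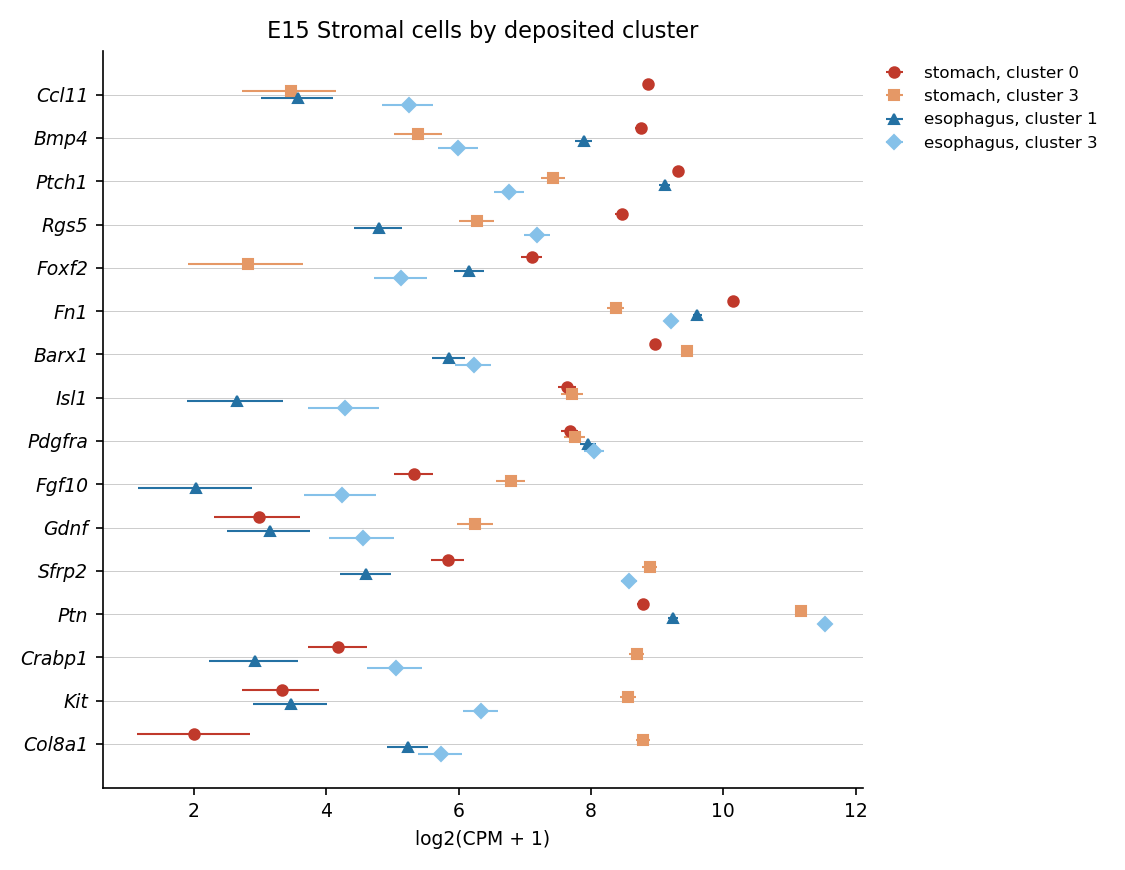
Levels of 16 genes, as log2(CPM + 1) with bars for the 95% counting interval, in E15 Stromal cells of stomach clusters 0 and 3 and esophageal clusters 1 and 3. Barx1 and Isl1 were high in both stomach clusters, whereas Ccl11 was high in stomach cluster 0 and Kit in stomach cluster 3.

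Set by cluster, the stomach excess of Barx1 was alike, with log2 ratios of 3.12 for stomach cluster 0 over esophageal cluster 1 and 3.23 for cluster 3 of both regions. Clusters 0 and 1 are different clusters that themselves split by region, so only the cluster 3 contrast holds the cluster fixed. That of Ccl11 was 5.36 in the former and -1.81 in the latter, so Ccl11 was higher in the stomach in cluster 0 against 1 and lower in cluster 3. Aldh1a2 had -2.48 and -0.16. Of 55 named genes past 2-fold between the regions that could be compared within cluster 3, 15 were within 2-fold there or had the opposite sign, among them Tgfb2 (0.24), Hoxa5 (0.80), Hoxa4 (0.71), Id3 (0.82) and Col1a1 (-0.99). Between stomach cluster 0 and esophageal cluster 1, 3 of 66 were, namely Igfbp2, Postn and Igfbp7 (-0.95). These contrasts were chosen after the data were seen.

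Against Smooth Muscle cells of the same stomach, fibroblasts held far less RNA of the contractile apparatus and more of matrix genes and BMP ligands, while Barx1 did not separate the classes. The labels rest on the same counts, so these values describe them. Of 9583 genes, 917 (9.57%) were at least 2-fold higher in fibroblasts and 475 (4.96%) at least 2-fold lower, with a median of 0.15 over all genes. Centring on that median gave 705 and 594.

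All 17 contractile genes were lower, beside 4.96% of all genes, and summed to 3111 CPM against 59383 CPM. Myh11, the smooth muscle myosin heavy chain, stood at 55.3 CPM (48.1 to 63.2) against 4069 CPM (3973 to 4168), and Cnn1, which encodes calponin, at 14.1 CPM (10.6 to 18.5) against 2045 CPM (1977 to 2115). Pcp4, a calmodulin-binding peptide, had 2 UMIs in fibroblasts against 924 in muscle, a log2 ratio of -9.48 (-13.11 to -8.202). The sarcomeric actin Actc1 stood at 1.05 CPM (0.285 to 2.68) against 347 CPM (319 to 376). Myocd, the coactivator of serum response factor that drives this set in muscle, had a log2 ratio of -3.52 (-3.84 to -3.24), and Myl9, whose upstream CArG box is shown above, of -4.42 (-4.53 to -4.32). Hemoglobin UMIs differed too, 657 CPM against 6865 CPM, and 1 muscle cell held 65.6% of those in muscle. Without the richest cell of each class, muscle stood at 2406 CPM and fibroblasts at 451 CPM. The 5 richest cells held 96.5% of the hemoglobin UMIs in muscle and 54.2% in fibroblasts. Hemoglobin genes changed sign in cells with no UMI of the dividing-cell genes described below, and several did in cells with Xist. Those values are given in the last section.

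Of 25 matrix genes 21 were higher and 2 lower, and of 13 collagens 10 were higher. Each list count here stands beside 9.57% of all genes higher and 4.96% lower. The hyaluronan synthase Has2 stood at 23.6 CPM (18.95 to 28.97) with 0 UMIs in muscle, at least 12.99-fold higher by the 3-UMI floor. Lum had a log2 ratio of 3.91 (3.498 to 4.43) and Col14a1 of 4.56 (3.94 to 5.46), while Tnc (-2.25, -2.73 to -1.81) and Postn (-1.12, -1.54 to -0.68) were lower. Bmp4 stood at 280.2 against 9.68 CPM (5.53 to 15.7), and 5 of 6 BMP ligands were higher. Of 13 BMP receptors and targets none was higher, 2 were lower and 11 were within 2-fold, with a median of -0.28. Of 8 BMP antagonists 4 were lower, Grem1 at -3.21 (-3.61 to -2.86) among them, and the other 4 were within 2-fold. Of the IGF, midkine and pleiotrophin list 9 of 14 genes were higher and 1 lower. Of the FGF list 6 of 11 were higher and none lower, beside 9.57% and 4.96% of all genes. The protease Fap had 37.5 CPM (31.6 to 44.1) in fibroblasts and 0 UMIs in muscle, at least 20.6-fold higher by that floor. Srpx2 likewise had 0 UMIs in muscle and was at least 14.6-fold higher. Their log2 interval bounds were lower, at 4.05 and 3.54. Ebf1 (5.78, 4.64 to 8.48), Zeb2 (4.07, 3.76 to 4.45), Pdgfrb (4.32, 3.57 to 5.53) and Pdgfra (2.703, 2.32 to 3.16) were higher, and the ligand Pdgfc lower (-3.72, -4.42 to -3.16). Barx1 had a log2 ratio of -0.11 (-0.21 to 0.001), Isl1 of -0.16 (-0.34 to 0.02) and Hand2, lower in fibroblasts, of -1.27 (-1.47 to -1.07). In cells with Xist and no Y-linked UMI, Hand2 had 0.055.

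Per cell, the contractile list took a median of 0.256% of UMIs in fibroblasts and 5.96% in Smooth Muscle cells. The 5th percentile of the Smooth Muscle cells was 1.55%, and 1 of 360 fibroblasts (0.278%, exact 95% Clopper-Pearson interval 0.0070 to 1.54%) reached it. The nearest fibroblast below lay at 1.53% and the one above at 1.91%.

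**Figure D5:**
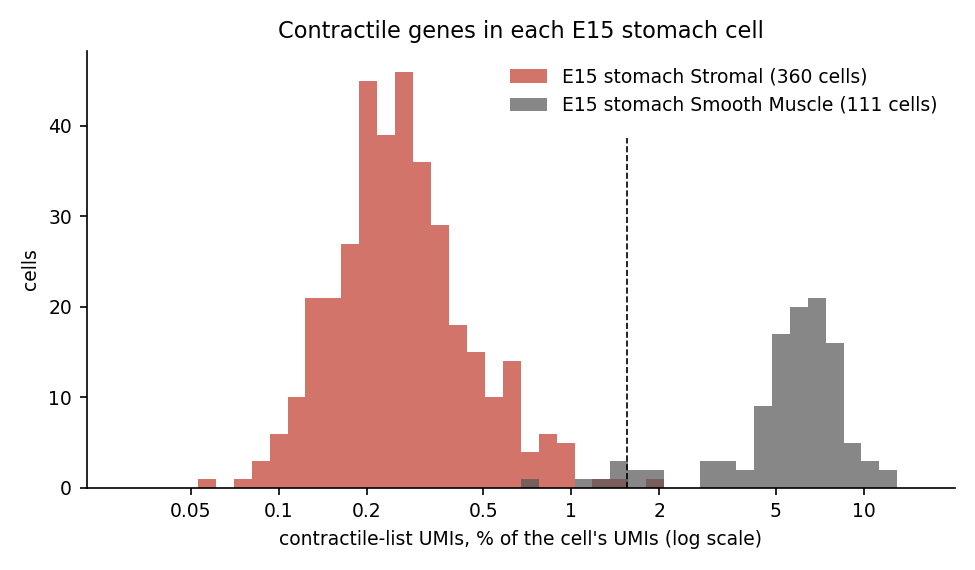
Number of cells (vertical axis) by the percent of a cell's UMIs from the 17 contractile genes (horizontal axis, log scale), for 360 Stromal cells (red) and 111 Smooth Muscle cells (grey) of the E15 stomach. The dashed line marks the 5th percentile of the Smooth Muscle cells, 1.55%, and 1 fibroblast lay above it.

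Dividing cells were counted as those with at least 2 UMIs over Mki67, Top2a, Ccnb1, Cdk1 and Birc5 after thinning. They made up 26.2% (21.5 to 31.3) of stomach fibroblasts, 24.8% (20.2 to 29.9) of esophageal fibroblasts, 36.7% (31.5 to 42.2) of GE-SCJ fibroblasts and 35.2% (26.2 to 45.0) of stomach Smooth Muscle cells. Within the stomach, cluster 0 had 25.5% (19.7 to 32.0) and cluster 3 had 27.3% (19.6 to 36.1). E15 immune cells had 41.8% (29.8 to 54.5). The intervals of the stomach and esophageal fibroblasts overlapped. Intervals of cell shares cover the sampling of cells only and not the spread between animals, so whether the shares differ was not tested.

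Among thinned stomach fibroblasts, the variance over mean was largest for Ltf, which encodes lactoferrin, at 111 beside a median of 1.08 over 7068 genes. Before thinning, a single cell held 230 of its 241 UMIs, together with 58 UMIs of Psca and 66 of Gsto1. The log2 ratio of Ltf in stomach over esophageal fibroblasts was 3.46 with that cell and -0.9996 without the 1% of cells of each group richest in Ltf. Hemoglobin Hbb-bs (108) and the nuclear RNA Malat1 (43.6) followed. Cell cycle genes such as Hmgb2 (13.4), immediate early genes such as Fos (9.16), Col1a1 (9.06) and Col3a1 (8.28) were also among the 20 most variable genes.

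The regional pattern was followed in cells that the E15 contrast did not use. Of the 340 genes higher in the E15 stomach, 326 were measured at E19 and 208 of them were again at least 2-fold higher in stomach than in esophageal fibroblasts, which is 35.4% of the 588 higher genes at E19 (5.14% of 11447 genes, and 3.31% lower). In the pup, where 100 of 3706 genes were higher (2.7%) and 115 lower (3.1%), 25 of 64 measured genes were again higher. In E15 Smooth Muscle cells, where 5.27% of 6943 genes were higher in the stomach and 3.02% lower, 65 of 153 were. Of the 301 lower genes, 179 of 292 were lower again at E19, 33 of 124 in the pup and 39 of 108 in Smooth Muscle cells.

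Barx1 in stomach fibroblasts stood at 393 CPM (378 to 409) at E19 and 269 CPM (223 to 321) in the pup, against 40.1 CPM (35.6 to 45.1) and 14.3 CPM (6.55 to 27.2) in the esophagus. Isl1 stood at 144 CPM (135 to 154) and 107 CPM (79.3 to 143), against 5.59 CPM (3.97 to 7.64) and 15.9 CPM (7.64 to 29.3). At the E15 GE-SCJ, Barx1 stood at 362 CPM (343 to 382), Isl1 at 106 CPM (95.5 to 116) and Nkx6-1 at 19.6 CPM (15.4 to 24.6), each between stomach and esophagus. The GE-SCJ level lay between them for 268 of the 340 higher genes (78.8%) and 228 of the 301 lower genes (75.7%), against 42.8% of the 9751 genes within 2-fold. These genes were chosen for a wide gap between stomach and esophagus, so these shares are a description. In that region, 251 of 350 Stromal cells (71.7%) lay in cluster 0.

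Between E15 and E19, stomach fibroblasts differed in matrix and contractile genes. Of 11026 genes, 157 (1.42%) were at least 2-fold higher at E15 and 257 (2.33%) at least 2-fold lower. Crabp1 stood at 172 CPM at E15 and 18.8 CPM (15.6 to 22.4) at E19, and Ptn had a log2 ratio of E15 over E19 of 1.45 (1.38 to 1.52). Of the 14 retinoic acid genes, 3 were higher at E15 and 4 lower, with a median of 0.043. Mfap5 stood at 48.98 and 465 CPM (448 to 481), and Postn had a log2 ratio of -2.901 (-3.23 to -2.61). Matrix genes were lower at E15 for 7 of 25, and contractile genes for 8 of 16, among them Tagln (-1.91, -2.04 to -1.797) and Acta2 (-1.599, -1.67 to -1.53). Cluster 0 held 59.7% of the stomach cells at E15 and 75.3% at E19.

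Both sexes were present in the pooled embryos. Of the 360 stomach fibroblasts, 169 held UMIs of Y-linked genes and none of Xist, 43 held Xist and no Y-linked UMI, 94 held both and 54 neither. In esophageal fibroblasts these numbers were 176, 40, 78 and 53. Barx1 had a log2 ratio of stomach over esophagus between 2.82 and 3.26 under every alternative tried.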

How the data were processed

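Cells of all tags were sequenced in a single library. Per the labels and methods, the authors counted UMIs with Cell Ranger 6.1.1 multi on the mm10 reference, filtered barcodes on their numbers of genes and UMIs and on mitochondrial share, and deposited raw UMI counts without normalization. The percent of mitochondrial UMIs of each cell, its tag, class label and cluster number were deposited by the authors, who regressed out cell cycle scores and mitochondrial share before clustering. No doublets were removed here beyond that filter, and no barcode occurred more than once.

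Counts were summed per group and scaled to CPM. Genes with at least 50 UMIs over both groups were compared, and a log2 ratio of at least 1 in size counted as higher or lower. Because each group is 1 pooled sample, no count model was fitted and no p-value is given. The intervals were computed with scipy 1.17.1, and thinning used seed 1. The calculation of ratios and intervals was checked on simulated counts. Genes named are the 15 in each direction whose interval bound nearest 0 was largest in size, leaving out mitochondrial, ribosomal protein, hemoglobin and Y-linked genes, Xist, and Gm or Rik models, the 3 members of each list with the largest ratios, the 4 markers, genes the study names for its fibroblasts, and the 20 most variable genes. Results for some genes that the rule or lists include are not reported here. Others, such as Foxf1, Myl9, Smad6, Smad7 and Hoxa4, were chosen after their values were seen. The cells and the gene lists were chosen with earlier results of these data known. The comparisons of clusters and of E15 with E19, and the alternatives by cluster, were added after seeing the data. Other alternatives changed the scaling, library size, centring, filters, fold, pseudocount and cells used. Positions are from GENCODE M21 on GRCm38. Work used Python 3.11.15, numpy 2.4.6, pandas 2.3.3 and matplotlib 3.10.9.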

Additional observations from a re-analysis of the deposited data

How the results depend on the processing

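Each region and stage is 1 pooled sample of 1 library, so no value has a replicate spread, and depth limits low genes. No paired analysis was possible because the groups have no replicates. In stomach over esophageal fibroblasts, the 340 higher and 301 lower genes became 541 and 466 with at least 20 UMIs, 106 and 132 with at least 200, 1520 and 1546 with at least 1, 164 and 150 at a log2 ratio of 1.5, and 98 and 133 in cells with Xist and no Y-linked UMI, where 2844 genes were compared. Against Smooth Muscle cells, 917 and 475 became 381 and 216 with at least 200 UMIs, 2149 and 1670 with at least 1, 448 and 285 at a log2 ratio of 1.5, and 212 and 168 in cells with Xist, where 2330 genes were compared, and the higher genes numbered 601 in cells with no UMI of the dividing-cell genes. The share of dividing cells was 31.4% at own depth and 45.2% with at least 1 UMI. Of 4018 values of named genes under an alternative, 3178 lay within the counting interval of the value given and 165 had the opposite sign, 149 of them for genes within 2-fold and 16 for genes past it. The 16 follow. When the 1% of cells richest in a gene were left out, Ltf was -0.9996 and Lyz2 0.78 against the esophagus, and Ltf was -1.94 and Cldn7 0.085 against muscle. Against muscle, hemoglobin genes changed sign in cells with no dividing-cell UMI (Hba-a1 0.74, Hba-a2 0.61, Hbb-bs 1.96, Hbb-bt 0.56) and, with Hand2 (0.055), in cells with Xist (Hba-a1 1.28, Hba-a2 1.20, Hbb-bs 2.82). In cluster 3 of both regions, added after seeing the data, Acta2 was 0.55, Ccl11 -1.81, Mcam -0.13 and Rgs5 -0.91. The cause of these changes was not tested.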
